A study of Mus musculus with 6 samples.

Results

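The 10 genes described here carry growth hormone and related cytokine signals in the liver. They are the receptor genes Ghr and Prlr, the kinase genes Jak1 and Jak2, the transcription factor genes Stat3, Stat5a and Stat5b, and the feedback inhibitor genes Socs2, Socs3 and Cish. They were taken by name from a list drawn up with earlier results of these data known, and are 10 of the 22609 gene rows of the deposited files. RNA was measured in primary hepatocytes, the main metabolic cells of the liver, taken into culture from male wild type mice of the C57BL/6 strain at an age of 4 months. The treated group (LRG1, 3 libraries) had received 20 µg/mL LRG1 protein for 16 h, and the control group (PBS, 3 libraries) had received phosphate-buffered saline for the same time. LRG1 is a secreted leucine-rich glycoprotein that the series title describes as an adipokine. The sources used here do not give the origin of the protein, the hormones in the culture medium or the number of mice behind each group, and the labels list no group that received another protein.

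Growth hormone binds a dimer of its receptor, which brings the attached JAK2 kinases together. JAK2 then phosphorylates the receptor and the STAT5 proteins, which enter the nucleus and switch on genes such as Igf1. Interleukin-6 and its relatives use the gp130 receptor, JAK1 and STAT3 instead, and in the liver this route drives the acute phase response. SOCS proteins and CIS, the product of Cish, are themselves induced by STATs. They bind phosphorylated receptors or kinases, and several also direct them to ubiquitin ligases, so that the signal is shut down.

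STAT dimers recognise the palindrome TTCNNNGAA, so the promoters of the members that rose are shown with each match to these letters in capitals. The search covered both strands, which read alike for a palindrome. The sequences are from RefSeq (GRCm38.p6) and run 5′ to 3′ on the gene's strand, with 250 bases before the annotated start and 50 after it. They are Cish (chr9:107296409-107296708, plus strand), Socs3 (chr11:117969317-117969616, minus strand), Ghr (chr15:3583303-3583602, minus strand, one of its annotated starts) and Jak2 (chr19:29251553-29251852, plus strand).
Cish: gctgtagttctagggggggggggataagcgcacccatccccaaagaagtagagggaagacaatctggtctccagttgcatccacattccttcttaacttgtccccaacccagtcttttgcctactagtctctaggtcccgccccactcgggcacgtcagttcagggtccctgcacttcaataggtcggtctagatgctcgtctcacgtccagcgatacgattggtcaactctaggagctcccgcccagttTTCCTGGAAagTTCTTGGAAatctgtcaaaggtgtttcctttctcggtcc
Socs3: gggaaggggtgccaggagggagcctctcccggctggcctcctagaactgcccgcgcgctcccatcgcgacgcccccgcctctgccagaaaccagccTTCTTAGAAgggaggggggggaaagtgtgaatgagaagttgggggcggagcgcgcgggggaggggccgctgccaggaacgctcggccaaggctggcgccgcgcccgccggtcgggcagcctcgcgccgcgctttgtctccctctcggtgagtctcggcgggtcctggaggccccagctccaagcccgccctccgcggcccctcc
Ghr: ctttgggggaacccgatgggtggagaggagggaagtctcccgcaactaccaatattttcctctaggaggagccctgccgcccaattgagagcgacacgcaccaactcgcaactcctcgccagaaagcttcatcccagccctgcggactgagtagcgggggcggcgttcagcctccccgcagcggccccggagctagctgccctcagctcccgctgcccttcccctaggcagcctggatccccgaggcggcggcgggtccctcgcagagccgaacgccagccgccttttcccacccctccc
Jak2: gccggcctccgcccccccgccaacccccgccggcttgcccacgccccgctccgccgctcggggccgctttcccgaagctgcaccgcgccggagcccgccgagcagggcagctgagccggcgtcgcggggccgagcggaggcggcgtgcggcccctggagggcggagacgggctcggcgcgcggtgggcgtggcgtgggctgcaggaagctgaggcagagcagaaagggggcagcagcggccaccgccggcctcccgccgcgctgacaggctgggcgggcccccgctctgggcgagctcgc
The Cish window held 2 matches, TTCCTGGAA at positions 1 to 9 and TTCTTGGAA at positions 12 to 20, counted from the first base after the annotated start. Socs3 held 1 match, TTCTTAGAA, at positions -154 to -146. The windows of Ghr and Jak2 held none, which says only that these letters are not in them. Promoters were found for 9 of the 10 members, 14 windows in all, and not for Socs2. The only other match was TTCTAGGAA at positions -110 to -102 of one of the 3 Prlr starts. Of 32851 promoter windows of 300 bases, 8.3% held at least 1 match and 0.457% held 2 or more. A match is a description of the letters and not evidence of STAT binding.

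Gene counts came to between 19670496 and 23036332 in the LRG1 libraries and between 18625748 and 19774537 in the PBS libraries. Across genes, log2 CPM (read counts put on one scale by library size) values correlated at a Pearson r of 0.995 to 0.996 between libraries of 1 treatment and 0.958 to 0.962 between treatments. Counts of all replicate pairs were further apart than sampling noise (chi-square per degree of freedom 2.84 to 4.02). Hepatocyte markers were abundant in every library, with 9 of 10 listed genes found. They summed to 23300 to 24300 CPM in LRG1 libraries and 24800 to 25800 CPM in PBS libraries. The sums of stellate cell and fibroblast markers were 23.7 to 27.3 CPM with LRG1 and 25.4 to 32.1 CPM with PBS. Endothelial markers summed to 41.0 to 44.4 CPM in LRG1 and 49.0 to 51.1 CPM in PBS libraries. Of 8 tested, Stab2 (log2 fold change -1.03), Lyve1 (-1.16) and Oit3 (-0.385) fell by edgeR at an adjusted p of 0.05. That share of 37.5% stands beside 25.8% of all tested genes. The other 5 did not pass, among them the most abundant, Cdh5 (0.082). Kupffer cell markers summed to 190 to 216 CPM in LRG1 and 229 to 274 CPM in PBS libraries, most of it Cd68. The median log2 fold change of the 9 tested Kupffer markers was 0.31, opposite in direction to the sum. By edgeR at an adjusted p of 0.05, Marco rose (0.70), Cd68 (-0.355) and Cd5l (-1.04) fell, and 6 did not pass. These shares of 11.1% and 22.2% stand beside 25.5% and 25.8% of all tested genes. Cholangiocyte markers summed to 4360 to 4680 CPM with LRG1 and 4480 to 4660 CPM with PBS, nearly all of it Spp1, and Cftr, Epcam and Krt7 were too low to test. The leukocyte markers Cd3e, Cd8a, Ms4a1, Nkg7 and S100a9 had no count in any library, where 3 counts would be 0.130 to 0.162 CPM. The leukocyte list summed to 0.864 to 1.05 CPM with LRG1 and 0.431 to 0.962 CPM with PBS. Its only tested gene, Ptprc, averaged 0.941 ± 0.113 CPM with LRG1 and 0.588 ± 0.325 CPM with PBS. The Ptprc groups overlapped, and it did not pass (log2 fold change 0.65, edgeR adjusted p = 0.125). The part of other cell types in the results below was not tested.

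In hepatocytes given LRG1, 4 of the 10 genes rose and 3 fell. Cish rose 3.50-fold, Ghr 1.72-fold, Jak2 1.28-fold and Socs3 1.21-fold. Prlr fell by 0.65, Stat5a by 0.24 and Stat5b by 0.20 on the log2 scale. Jak1, Stat3 and Socs2 did not pass the test. All 10 members had enough counts to be tested, and the 7 called (70.0%) stand beside 51.4% of the 12301 tested genes called by edgeR's quasi-likelihood test at an adjusted p of 0.05. By direction, 25.5% of tested genes were called higher and 25.8% lower. A called rise of at least 1.5-fold was found for 7.49% of tested genes and for 2 members, and one of at least 3-fold for 2.18% and for 1 member. No overlap between the LRG1 and the PBS libraries was found for 57.6% of tested genes and for 7 members. The median log2 fold change of the members was -0.070, beside 0.0093 for all tested genes. In bulk RNA, fewer cells of a type and less RNA per cell cannot be told apart.

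**Figure D1:**
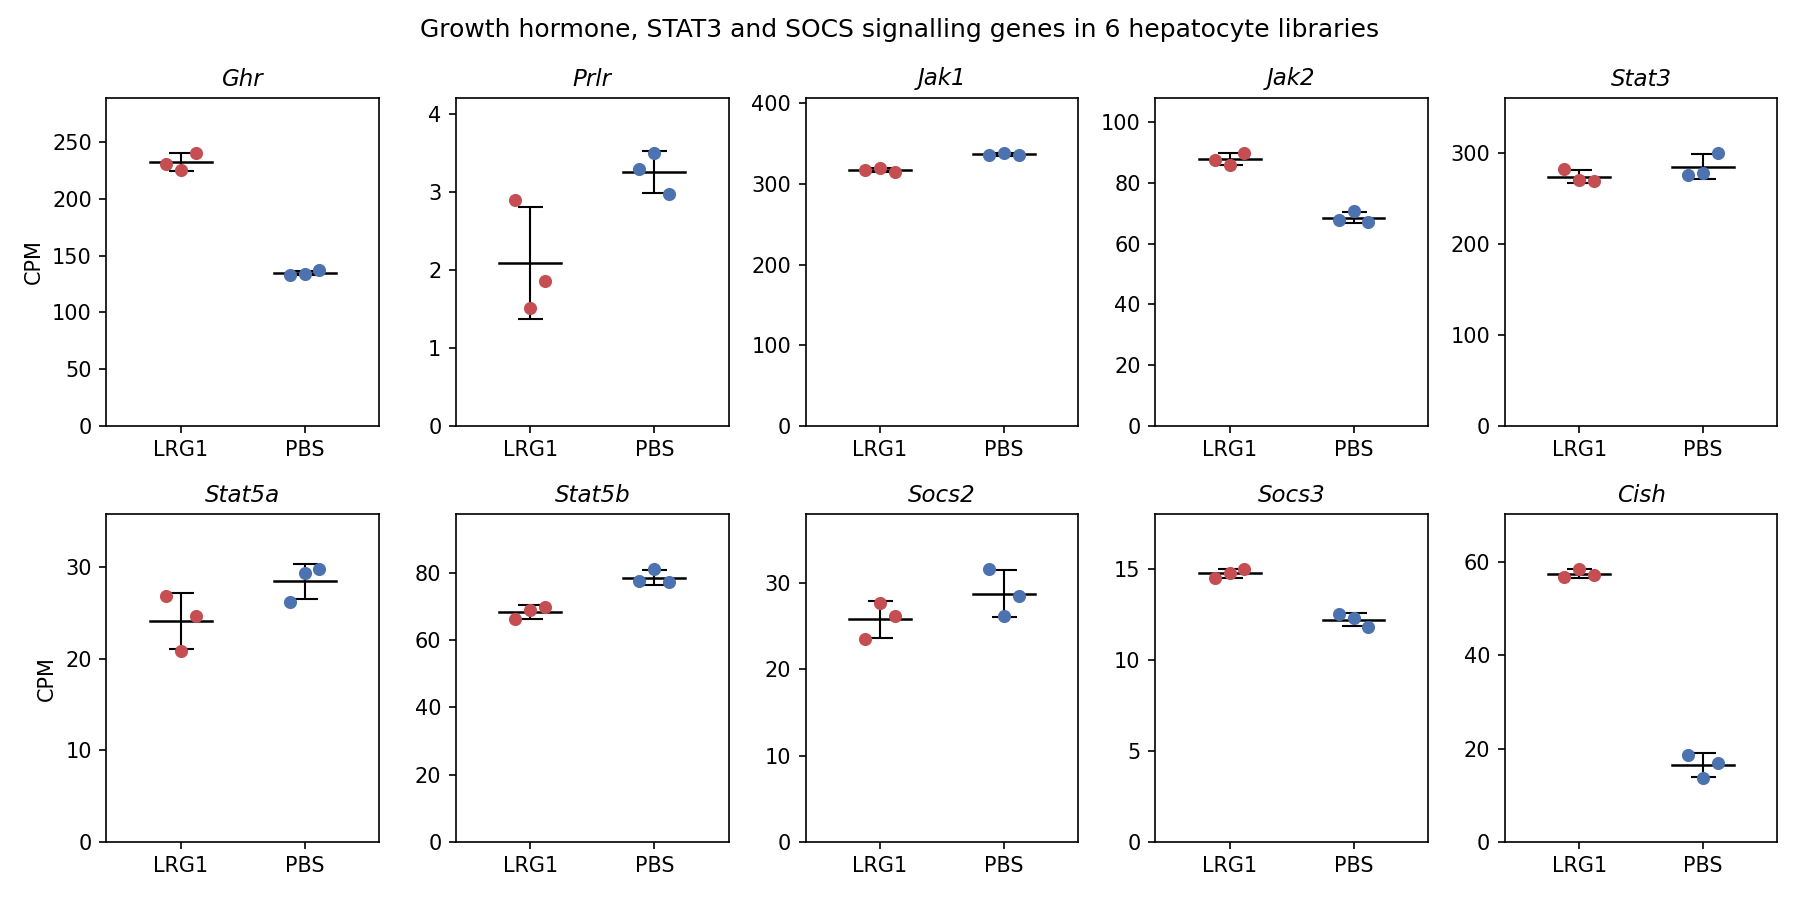
CPM (vertical axes, from 0) of the 10 genes in the 3 LRG1 and the 3 PBS libraries. Points are libraries, wide lines group means and capped lines 1 SD. The groups are far apart for Cish and Ghr and overlap for Stat3, Stat5a and Socs2.

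Among the receptors, Ghr encodes the growth hormone receptor and is one of the more abundant members. Ghr measured 231, 226 and 241 CPM in the LRG1 libraries, against 133, 134 and 137 CPM in the PBS libraries. Every LRG1 library was well above every PBS library, and the replicates of each group were close together. Ghr averaged 233 ± 7.60 CPM with LRG1 and 135 ± 2.18 CPM with PBS (SD, n = 3 each), a log2 fold change of 0.79 (SE 0.040, 95% interval 0.70 to 0.87, adjusted p = 5.09e-14). Counts per gene do not separate the full-length receptor from its soluble binding-protein form.

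Prlr, the prolactin receptor, was the scarcest member. Its counts were 58, 35 and 37 in LRG1 libraries and 65, 65 and 56 in PBS libraries. On the CPM scale these were 2.89, 1.51 and 1.86 with LRG1 and 3.29, 3.50 and 2.97 with PBS. LRG1 replicate 1 was just below the lowest PBS library, while the other LRG1 libraries were clearly lower. Its fitted log2 fold change was -0.65 (SE 0.21, 95% interval -1.09 to -0.22, adjusted p = 0.0119). Its exons share 203 bases with the annotated gene Gm21973 on the same strand. Prlr no longer passed when LRG1 replicate 2 was left out (-0.45, adjusted p = 0.101) or when LRG1 replicate 3 was (-0.59, adjusted p = 0.0567).

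Of the kinase genes, Jak2 rose and Jak1 did not pass. Jak2, the kinase bound to the growth hormone and prolactin receptors, measured 87.6, 86.0 and 90.0 CPM with LRG1, against 67.8, 70.7 and 67.2 CPM with PBS. All LRG1 values lay above all PBS values. This gave Jak2 a log2 fold change of 0.36 (SE 0.046, 95% interval 0.26 to 0.45, adjusted p = 5.30e-07). Jak1, the kinase of gp130 and interferon receptors, measured 317, 320 and 315 CPM with LRG1 and 336, 339 and 336 CPM with PBS. The Jak1 groups also did not overlap, but the distance was small. Jak1 had a log2 fold change of -0.085 (95% interval -0.16 to -0.011), and its adjusted p of 0.0524 lay just outside the threshold. It passed under 6 of the 15 alternatives, with adjusted p between 0.0249 and 0.127 over all of them. The within-library log2 difference of Jak2 minus Jak1 was -1.90 to -1.80 in LRG1 libraries and -2.32 to -2.26 in PBS libraries.

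**Figure D2:**
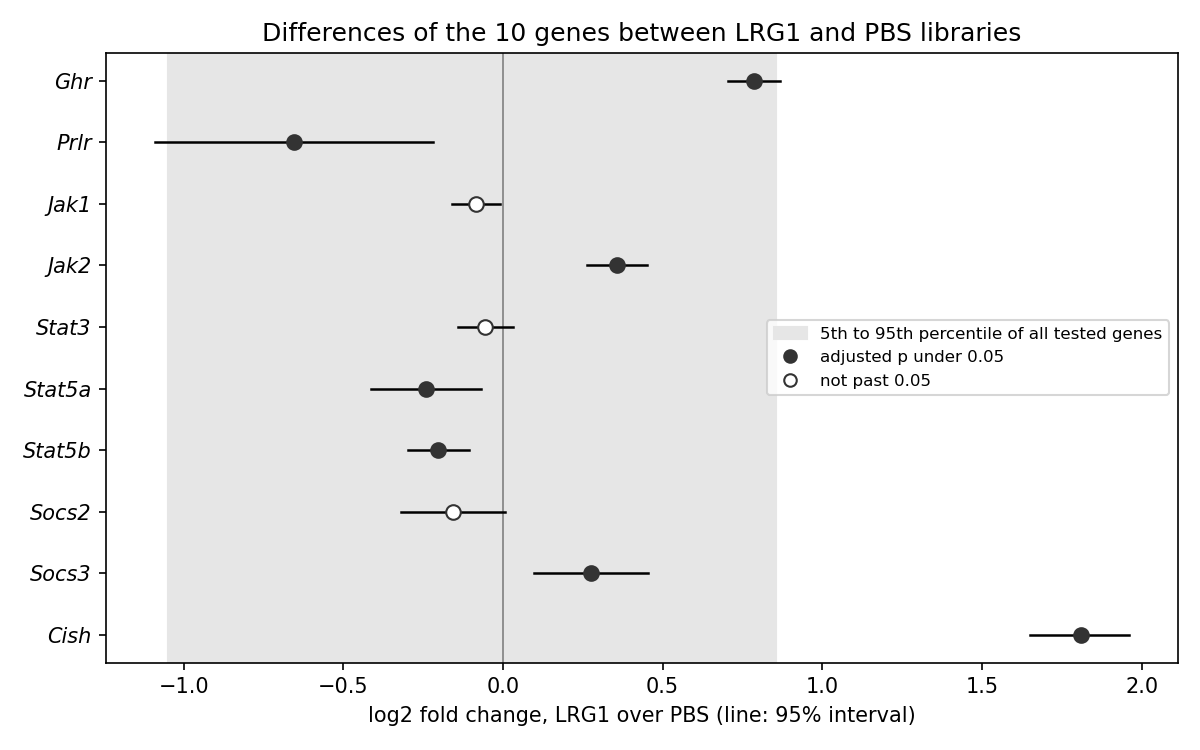
Log2 fold changes (horizontal axis, LRG1 over PBS) of the 10 genes with 95% intervals. Filled points passed an adjusted p of 0.05, and the grey band spans the 5th to 95th percentile of all tested genes, -1.05 to 0.86. Cish lies outside the band and the other members inside it.

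Of the STAT genes, Stat5b, the main STAT of growth hormone signalling in liver, measured 66.1, 68.8 and 69.9 CPM with LRG1 and 77.4, 81.1 and 77.1 CPM with PBS. Its groups did not overlap. Stat5b had a log2 fold change of -0.20 (SE 0.047, 95% interval -0.30 to -0.11, adjusted p = 0.000897). Stat5a, its close paralog and neighbour in the genome, was less abundant, at 26.8, 20.8 and 24.7 CPM with LRG1 and 26.2, 29.3 and 29.8 CPM with PBS. LRG1 replicate 1 lay above PBS replicate 1, so the groups overlapped. Stat5a fell by 0.24 on the log2 scale (SE 0.0825, 95% interval -0.41 to -0.070, adjusted p = 0.0176). Stat5a did not pass when any 1 of LRG1 replicate 2 (-0.14, adjusted p = 0.169), PBS replicate 2 (-0.22, adjusted p = 0.0552) or PBS replicate 3 (-0.21, adjusted p = 0.0765) was left out. A fit that removed trends with GC content and length gave -0.38.

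The ratio of the paralogs overlapped between the groups, at -1.72 to -1.30 in LRG1 and -1.56 to -1.37 in PBS libraries. Stat5a minus Stat5b averaged -1.51 ± 0.210 on the log2 CPM scale with LRG1 and -1.46 ± 0.095 with PBS (SD, n = 3 each, two-sided exact permutation p = 0.9, adjusted p = 0.9 over 6 pairs). With 3 against 3 libraries the smallest p this test allows is 0.1, so it cannot show that the ratio was unchanged. Reads from stretches that both genes share cannot be placed with certainty. Of the distinct 50-base stretches in GENCODE transcripts, 8.52% of those of Stat5a and 11% of those of Stat5b also occurred in other genes, 608 of them in both genes.

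Stat3, the factor downstream of gp130, was the second most abundant member per transcript length. It measured 282, 270 and 269 CPM with LRG1 and 275, 278 and 300 CPM with PBS. These ranges overlapped, and PBS replicate 3 was the highest library. Stat3 had a log2 fold change of -0.055 (95% interval -0.14 to 0.03, adjusted p = 0.279). It passed at -0.14 (adjusted p = 0.00709) once trends with GC content and length were removed. Without PBS replicate 3 it was -0.014 (adjusted p = 0.815). The 3′ ends of Stat3 and Stat5a overlap by 72 bases on opposite strands, and the sources used here do not say whether the counting used strand.

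The feedback inhibitors held the largest difference. Cish encodes CIS, which binds phosphorylated cytokine receptors at sites used by STAT5. Counts for Cish were 1140, 1354 and 1134 in LRG1 libraries and 367, 253 and 320 in PBS libraries. On the CPM scale these were 56.8, 58.5 and 57.1 with LRG1 and 18.6, 13.6 and 17 with PBS. The LRG1 libraries were nearly equal, and all were far above the highest PBS library. Cish had a log2 fold change of 1.81 (SE 0.077, 95% interval 1.65 to 1.96, adjusted p = 2.05e-15), an absolute change at the 96.6th percentile of tested genes. Exons of Cish overlap the annotated antisense genes Gm17040 (261 bases) and Gm17041 (479 bases), and reads of these cannot be told from those of Cish if strand was not used.

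Socs3, the inhibitor that binds gp130 and JAKs, measured 14.5, 14.8 and 15.0 CPM with LRG1 and 12.5, 12.3 and 11.8 CPM with PBS. The groups did not overlap, though the step was much smaller than for Cish. Socs3 had a log2 fold change of 0.28 (SE 0.086, 95% interval 0.10 to 0.45, adjusted p = 0.0099). Socs2, which tags the growth hormone receptor for ubiquitination, measured 23.5, 27.7 and 26.1 CPM with LRG1 and 31.6, 26.1 and 28.5 CPM with PBS. Its groups overlapped. For Socs2 the log2 fold change was -0.16 (95% interval -0.32 to 0.0048, adjusted p = 0.0990). It passed without LRG1 replicate 2 (-0.21, adjusted p = 0.0485) and without PBS replicate 2 (-0.22, adjusted p = 0.0282), and was -0.082 without PBS replicate 1.

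The inhibitors were also compared with each other within a library, in pairs chosen with their values known. Cish minus Socs2 on the log2 CPM scale was 1.07 to 1.27 in LRG1 libraries and -0.93 to -0.74 in PBS libraries. For Cish minus Socs3 it was 1.92 to 1.98 with LRG1 and 0.15 to 0.57 with PBS, and for Socs3 minus Socs2 it was -0.90 to -0.69 with LRG1 and -1.33 to -1.08 with PBS. None of the 3 pairs overlapped between groups, and each reached a two-sided exact permutation p of 0.1, the smallest that 3 against 3 libraries allow (0.12 adjusted over the 6 pairs compared). The same p held for Jak2 minus Jak1 and for Ghr minus Prlr.

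Per transcript length, Cish changed its place in the order the most. The scale here is CPM per kilobase of the longest GENCODE principal transcript. In LRG1 libraries the order was Jak1 (64.6), Stat3 (60.6), Ghr (55.8), Cish (20.2), Jak2 (17.5), Stat5b (13.1), Socs2 (11.6), Stat5a (6.20), Socs3 (5.79) and Prlr (0.211). In PBS libraries it was Jak1 (68.6), Stat3 (62.9), Ghr (32.4), Stat5b (15.1), Jak2 (13.6), Socs2 (13.0), Stat5a (7.31), Cish (5.75), Socs3 (4.79) and Prlr (0.329). The libraries of Stat5a and Socs3 overlapped in the LRG1 group, as did those of Jak2 and Socs2 and of Cish and Socs3 in the PBS group. Other neighbours in either order did not overlap. With all annotated exons as the length, Socs3 stood above Socs2 in both groups, and Cish stood below Jak2 and Stat5b in LRG1 libraries.

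**Figure D3:**
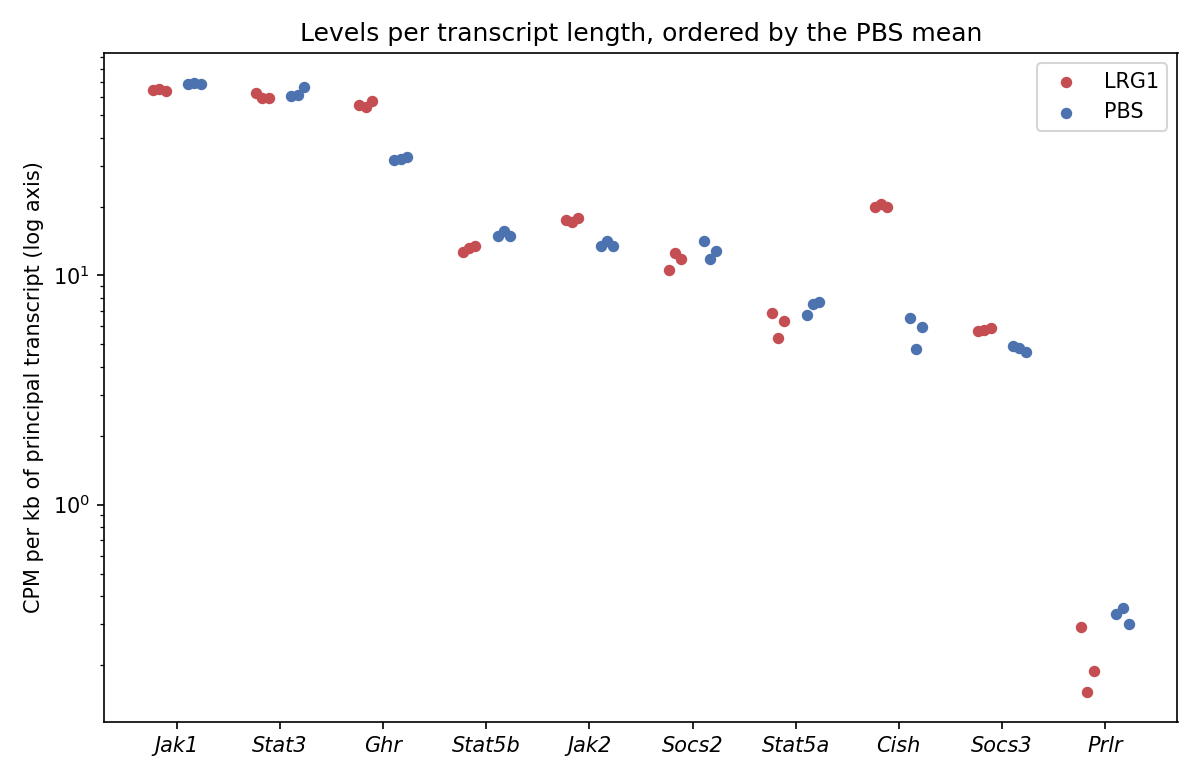
Level of each gene in CPM per kilobase of principal transcript (logarithmic vertical axis), ordered by the PBS mean, with 1 point per library. Cish is close to Socs3 in PBS libraries and above Jak2 in LRG1 libraries, while Prlr is far below all others in both groups.

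Cish had the largest absolute log2 fold change of the members. The tested genes whose centred log2 CPM values over the 6 libraries were nearest to those of Cish were Sarm1, Gpr56 and Col16a1, with root mean square differences of 0.0703, 0.105 and 0.112. Gpr56, an adhesion G protein-coupled receptor, averaged 163 ± 8.25 CPM with LRG1 and 48.1 ± 2.85 CPM with PBS. Sarm1, which cleaves NAD, averaged 6.64 ± 0.233 CPM with LRG1 and 1.83 ± 0.430 CPM with PBS. Col16a1, a collagen chain, averaged 2.71 ± 0.187 CPM with LRG1 and 0.803 ± 0.137 CPM with PBS (SD, n = 3 each).

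Among other genes of the JAK, STAT and SOCS families, 11 were listed and 10 tested. Of these 5 rose (50%, beside 25.5% of all tested genes) and 1 fell (10%, beside 25.8%), with a median log2 fold change of 0.19. Stat6, the factor of interleukin-4 signalling, averaged 254 ± 6.37 CPM with LRG1 and 209 ± 4.21 CPM with PBS (log2 fold change 0.28, adjusted p = 1.27e-06). Stat2, an interferon-activated factor, averaged 202 ± 5.98 CPM with LRG1 and 170 ± 4.75 CPM with PBS (0.26, adjusted p = 9.19e-06). Socs5, another SOCS inhibitor, averaged 40.8 ± 2.47 CPM with LRG1 and 47.6 ± 0.774 CPM with PBS (-0.22, adjusted p = 0.0022).

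The receptors of the gp130 family and relatives included 10 tested of 12 listed, of which 3 rose and 1 fell, with a median of 0.077. These shares of 30% and 10% stand beside 25.5% and 25.8% of all tested genes, so the share that rose was near the background. The third gene that rose, Il11ra1, a subunit of the interleukin-11 receptor named after its value was seen, was close to the threshold (log2 fold change 0.20, adjusted p = 0.0480). Under 11 of the 15 alternatives 2 genes of the list rose. Without PBS replicate 2, and with GC and length trends removed, 2 fell. Osmr, the oncostatin M receptor, averaged 44.8 ± 1.53 CPM with LRG1 and 30.3 ± 1.54 CPM with PBS (log2 fold change 0.57, adjusted p = 2.90e-08). Lifr, the leukaemia inhibitory factor receptor, averaged 22.6 ± 1.38 CPM with LRG1 and 29.5 ± 1.34 CPM with PBS (-0.39, adjusted p = 6.28e-05). Il10rb, a subunit of interleukin-10 and interleukin-22 receptors, averaged 48.2 ± 0.635 CPM with LRG1 and 39.7 ± 2.36 CPM with PBS (0.28, adjusted p = 0.000214). The gene for gp130 itself, Il6st, named after its value was seen, averaged 186 ± 2.32 CPM with LRG1 and 182 ± 0.736 CPM with PBS and did not pass (adjusted p = 0.513).

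The ubiquitin ligase that SOCS proteins recruit showed no called gene by edgeR, and none had an unadjusted p under 0.05. None was called by DESeq2 or limma-voom either. Its members Tceb1 and Tceb2 (elongins C and B), Rnf7 and Cul5 had log2 fold changes of -0.084, 0.039, 0.024 and 0.016. Phosphatases, PIAS proteins and adaptors of JAK signalling had 9 of 16 members that rose (56.2%, beside 25.5% of all tested genes) and none that fell (beside 25.8%), with a median of 0.17. Sh2b2, an adaptor of JAK2 and the insulin receptor, averaged 7.62 ± 0.279 CPM with LRG1 and 3.58 ± 0.555 CPM with PBS (log2 fold change 1.09, adjusted p = 4.49e-07). Grb10, an adaptor that inhibits the insulin receptor, averaged 12.9 ± 1.65 CPM with LRG1 and 6.81 ± 1.36 CPM with PBS (0.92, adjusted p = 2.11e-06). Ptpn11, the phosphatase SHP2, averaged 408 ± 12 CPM with LRG1 and 348 ± 5.76 CPM with PBS (0.23, adjusted p = 1.77e-05).

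**Figure D4:**
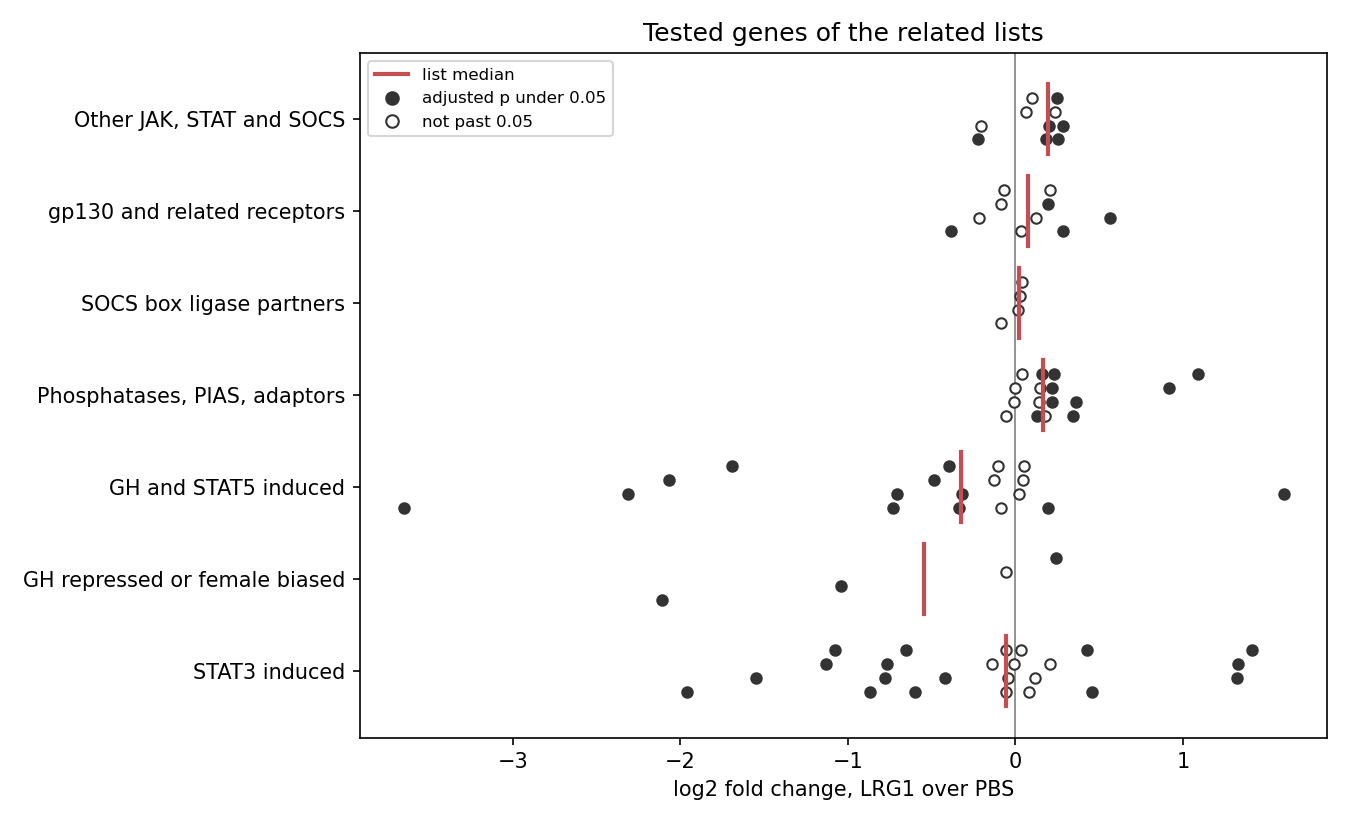
Log2 fold changes (horizontal axis, LRG1 over PBS) of the tested genes of 7 related lists, with 1 point per gene, filled where the adjusted p was under 0.05. Red bars are list medians. The lowest was -0.55, for growth hormone repressed or female-biased genes, with only 4 of 16 listed genes tested. The highest was 0.19, for the other JAK, STAT and SOCS genes, with 10 of 11 tested.

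Of 20 liver genes that growth hormone and STAT5 are known to induce, 18 were tested. Of these 2 rose (11.1%, beside 25.5% of all tested genes) and 10 fell (55.6%, beside 25.8%), with a median of -0.33. Those that rose were Igf1 and the serpin gene Serpina1e, named after its value was seen, whose groups overlapped (925 ± 77.4 CPM with LRG1 and 809 ± 64.6 CPM with PBS, log2 fold change 0.19, adjusted p = 0.00456). The number that rose was 1 with DESeq2 and without LRG1 replicate 1, and 4 with GC and length trends removed. Igf1, the circulating growth factor made under growth hormone, measured 743, 720 and 705 CPM with LRG1 and 225, 256 and 236 CPM with PBS. Every LRG1 library was far above every PBS library (log2 fold change 1.6, SE 0.044, adjusted p = 7.47e-19). Selenbp2, a selenium-binding protein gene, measured 1.99, 1.77 and 1.76 CPM with LRG1 and 21.8, 22.3 and 25.6 CPM with PBS. Selenbp2 had a log2 fold change of -3.65 (adjusted p = 2.91e-17). It has a close paralog, Selenbp1, and reads shared between them were not examined, so its value is uncertain. C6, a complement component, measured 7.57, 8.98 and 7.41 CPM with LRG1 and 34.0, 32.3 and 34.9 CPM with PBS (log2 fold change -2.07, adjusted p = 1.12e-15).

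Further genes of this list, named after their values were seen, were Onecut1, a transcription factor, at 1.55 ± 0.192 CPM with LRG1 and 7.71 ± 0.526 CPM with PBS, and the bile acid pathway gene Cyp7b1, at 9.06 ± 1.14 CPM with LRG1 and 29.1 ± 2.11 CPM with PBS. Igfals, the partner that stabilises circulating IGF1 and likewise named after its value was seen, did not pass, at 46.9 ± 1.98 CPM with LRG1 and 50.5 ± 0.701 CPM with PBS (log2 fold change -0.11, adjusted p = 0.103). The Mup, Cyp2d, Cyp4a12 and Serpina families in the list have near-identical copies. Reads shared among the copies were not examined, so the counts of these families are uncertain. This limits the list's shares, as Cyp2d9, Mup20, Cyp4a12a and Cyp4a12b were among the genes that fell and Serpina1e among those that rose. These genes were named after their values were seen. Hepatocyte identity markers also moved in part. Of 9 tested, 4 fell (44.4%, beside 25.8% of all tested genes) and none rose, with Cps1 at -2.11, Apoa1 at -0.62 and Ahsg at -0.61 on the log2 scale, and their part in the list's values was not tested.

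Of 16 genes that growth hormone represses or that are higher in female liver, 4 could be tested and 6 had no count in any library. Igfbp1, an IGF binding protein, averaged 123 ± 6.21 CPM with LRG1 and 254 ± 27.4 CPM with PBS (log2 fold change -1.04, adjusted p = 2.43e-13). Cyp2b10, a drug-metabolising enzyme, averaged 0.416 ± 0.250 CPM with LRG1 and 1.87 ± 0.403 CPM with PBS (-2.11, adjusted p = 1.27e-05). Its counts were low, at 9, 15 and 3 in LRG1 libraries and 42, 26 and 39 in PBS libraries, so the size of its fall is uncertain. Bcl6, a repressor that competes with STAT5, averaged 47.7 ± 2.83 CPM with LRG1 and 40.4 ± 2.95 CPM with PBS (0.24, adjusted p = 0.00228). Igfbp2, another binding protein, averaged 59.3 ± 7.40 CPM with LRG1 and 61.7 ± 8.93 CPM with PBS and did not pass (adjusted p = 0.585).

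Genes that STAT3 is known to induce in liver also went both ways. Of 25 listed, 24 were tested, of which 5 rose (20.8%, beside 25.5% of all tested genes) and 10 fell (41.7%, beside 25.8%), with a median of -0.056. Without LRG1 replicate 2 the number that rose was 8. Junb, a subunit of AP-1, measured 473, 437 and 446 CPM with LRG1 and 169, 166 and 174 CPM with PBS, with no overlap (log2 fold change 1.41, SE 0.041, adjusted p = 1.83e-18). Crp, C-reactive protein, measured 22.6, 19.4 and 19.3 CPM with LRG1 and 77.2, 84.5 and 76.6 CPM with PBS (log2 fold change -1.96, adjusted p = 1.90e-17). Hp, haptoglobin, measured 2860, 2550 and 2840 CPM with LRG1 and 6140, 5780 and 6170 CPM with PBS (log2 fold change -1.13, adjusted p = 5.74e-16). The genes that rose, of which those other than Junb were named after their values were seen, were Junb, the kinase gene Pim1, the protease inhibitor gene Timp1, the metalloreductase gene Steap4 and the interleukin-4 receptor gene Il4ra. Those that fell were secreted proteins apart from the transcriptional co-regulator gene Bcl3, also named after its value was seen. Lrg1, the gene of the added protein and itself in this list, averaged 159 ± 25 CPM with LRG1 and 270 ± 22.5 CPM with PBS (log2 fold change -0.76, adjusted p = 3.60e-09). Acute phase genes of the list thus differed among themselves. Saa1, Saa2 and Lcn2 did not pass (log2 fold changes -0.0084, -0.056 and -0.043). Whether reads are shared between Saa1 and Saa2, or among other related genes of this list, was not examined. The fibrinogen genes Fga, Fgb and Fgg fell (-0.87, -0.78 and -1.08), as did Crp and Hp. The Saa, Lcn2 and fibrinogen genes were named after their values were seen.

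**Figure D5:**
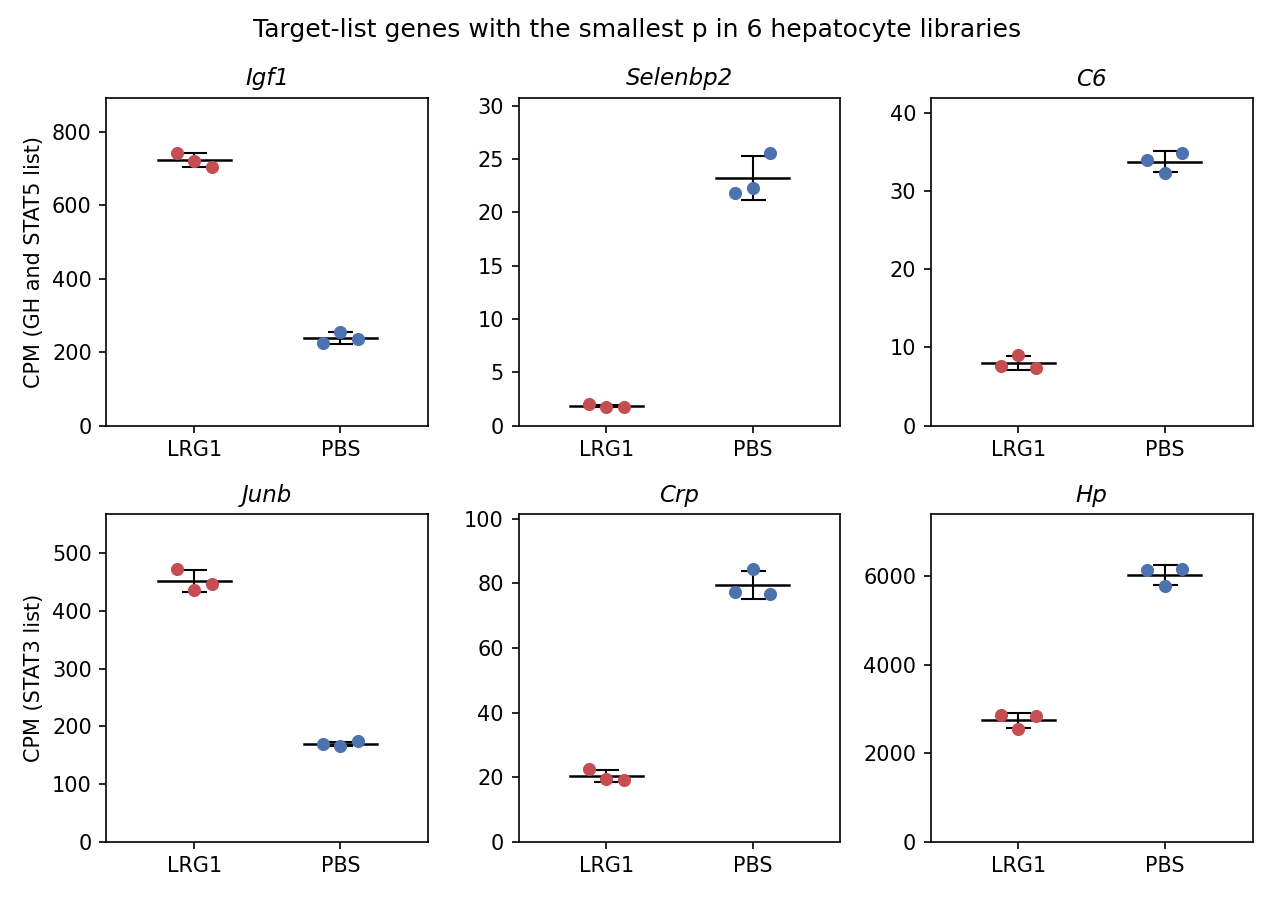
CPM (vertical axes, from 0) of the 3 genes with the smallest p in the growth hormone and STAT5 list (top) and in the STAT3 list (bottom), with libraries as points, group means as wide lines and 1 SD as capped lines. Igf1 and Junb were higher in all LRG1 libraries, and Selenbp2, C6, Crp and Hp were lower.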

How the data were processed

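RNA-seq libraries of 6 primary hepatocyte samples were analysed, 3 given LRG1 and 3 given PBS as the labels state. The authors deposited 1 file per library with unnormalized read counts for each gene symbol. Per the submitters' processing notes bcl2fastq, TopHat2 and HTSeq were used with build mm9. The sources used here do not give versions, annotation, strand setting or how reads with several alignments were handled. The 5 summary rows at the end of each file were left out of library sizes and tests. Reads in no annotated gene made up 8.96 to 10.3% of uniquely aligned reads, ambiguous reads 0.258 to 0.280%, and alignments that were not unique 58.2 to 59.3% of all row totals.

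Genes were filtered with filterByExpr (minimum count 10), which kept 12301 of 22609 genes holding 99.95% of gene counts. The test was edgeR 4.0.16 (R 4.3.3), TMM scaling and the quasi-likelihood F test on treatment, with p-values adjusted after Benjamini and Hochberg over the 12301 genes and called under 0.05. The pipeline was also run on simulated counts. There all genes had the same spread beyond sampling noise and few genes differed, unlike in these data. The outcome is not given here, and no result rests on it. CPM values use the TMM-scaled sums of tested genes. Standard errors (SE) were derived from the F statistic. Intervals are 95% intervals of the log2 fold change. Lengths and overlaps came from GENCODE M21 (GRCm38), promoters from RefSeq (GRCm38.p6), matched by symbol. The build differs from that of the counting.

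The members and lists were chosen with earlier results of these data known. Named genes were all 10 members, Lrg1, the 3 genes with the smallest p in each list (all tested genes of a list with 4 or fewer), and the 3 genes most like the member with the largest difference. Markers of other cell types named beside their list's sum, and genes marked as such in the text, fall outside that rule and were chosen after their values were seen. Alternatives were other scalings, other filters, DESeq2 1.42.0, limma-voom (limma 3.58.1), a replicate block, leaving out each library, and a fit with GC and length trends removed, which was chosen after seeing the data. The GC and length fit held only the 11120 genes (90.4% of those tested) whose symbol had a GC content and length. Its adjusted p-values are over that smaller set. The labels do not say whether the replicates are separate mice or cultures. The p-values thus rest on the spread between these libraries, and that spread may be technical.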

Additional observations from a re-analysis of the deposited data

How the results depend on the processing

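For 19 results under 15 alternatives, 270 of 285 values kept their direction and side of the threshold, 15 did not, and none reversed. Counts of calls in either direction together were only asked to stay within 1.5 times, and could not reverse. All 15 changes were in log2 fold changes of members, namely Jak1 (6), Stat5a (3), Socs2 (3), Prlr (2) and Stat3 (1). Ghr (log2 fold change 0.76 to 0.81), Jak2 (0.34 to 0.41), Stat5b (-0.26 to -0.18), Socs3 (0.24 to 0.29) and Cish (1.69 to 1.91) kept their calls throughout, and between 6 and 10 members were called. Jak1 passed with DESeq2 size factors (-0.0886), upper quartile scaling (-0.0879), at least 1 CPM in 3 libraries (-0.0866), DESeq2 (-0.0886), limma-voom (-0.0851) and GC and length trends removed (-0.091). The last also brought Stat3 (-0.135) and Socs2 (-0.184) past the threshold. The cause was not tested. When each library was left out in turn, Prlr ran from -0.958 to -0.451, Stat5a from -0.329 to -0.141 and Socs2 from -0.220 to -0.0823. Calls numbered 5594 to 6592 over all alternatives. The median over all genes stayed between 0.0043 and 0.025. The labels give both groups replicate numbers 1 to 3, but same-numbered libraries did not deviate together (r = -0.123, -0.0142 and -0.119), and none correlated best with its own number. With the replicate block 5890 genes and 7 members were called. Prlr, with 35 to 65 counts in a library, is the member most limited by depth.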
